A study of Mus musculus with 6 samples.

Results

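The genes described here encode the core of the machinery that releases transmitter from synaptic vesicles, with the transporters that load glutamate into those vesicles. They were 10 genes: the SNARE proteins Stx1a, Snap25, Vamp1 and Vamp2, the complexins Cplx1 and Cplx2, the calcium sensors Syt1 and Syt2, and the vesicular glutamate transporters Slc17a6 (VGLUT2) and Slc17a7 (VGLUT1). Every probe set whose single gene symbol in the platform annotation was one of these names was taken, which gave 18 of the 22690 probe sets on the array. They stood for 9 of the 10 genes, because no probe set carried Slc17a7 as its single symbol, and that transporter was not analysed here. A further probe set annotated to Vamp1 together with another gene was left out. Stx1a, Vamp2, Syt1 and Slc17a6 had 2 probe sets each, as did Vamp1, while Cplx1 and Syt2 had 3 each and Snap25 and Cplx2 had 1 each.

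The arrays compared the cochlear nucleus, the first brainstem station of the hearing pathway, on both sides of mice at postnatal day 21. An osmotic pump had delivered tetrodotoxin, a toxin that blocks voltage-gated sodium channels and stops nerve fibres from firing, to 1 cochlea over 24 h. The ipsilateral group was the nucleus on the infused side and the contralateral group the nucleus on the other side of treated mice, with 3 arrays each, every array a pool of tissue from 10 to 12 mice. The labels name neither strain nor sex. Differences within replicates are between arrays of the same replicate number, which no label states to be the same mice. All arrays came from infused mice, and which side a difference arose on cannot be told apart.

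Vesicles fuse when syntaxin and SNAP-25 on the plasma membrane zipper together with synaptobrevin (VAMP) on the vesicle. Complexins bind the assembled SNAREs and hold them ready, and synaptotagmins couple fusion to calcium entry. Fast synapses of the auditory brainstem are known for Syt2 and Vamp1, whereas Syt1 and Vamp2 prevail in the forebrain. The auditory nerve fibres that end in the nucleus have their cell bodies in the cochlea, outside the tissue dissected.

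Promoter windows are shown for the 2 genes of lowest p, Cplx2 and Slc17a6, and for Cplx1, the paralog of Cplx2. They are RefSeq sequences of build GRCm38.p6, read 5′ to 3′ on the strand of the gene, from 250 bases before to 50 bases after a start that the table annotates. Windows were held for 8 of the 10 genes. Capitals mark matches on either strand to TGACGTCA (the cyclic AMP response element, CRE), its core TGACG, which lies within it, the GC box GGGCGG and the TATA box TATAAA. The Cplx2 window is chr13:54302306-54302605 (plus strand), the Cplx1 window chr5:108549978-108550277 (minus strand) and the Slc17a6 window chr7:51621580-51621879 (plus strand, the first of its 2 windows). The start in the Cplx2 window lies 592 bases inside the gene's outermost RefSeq start, which the window does not cover.
Cplx2: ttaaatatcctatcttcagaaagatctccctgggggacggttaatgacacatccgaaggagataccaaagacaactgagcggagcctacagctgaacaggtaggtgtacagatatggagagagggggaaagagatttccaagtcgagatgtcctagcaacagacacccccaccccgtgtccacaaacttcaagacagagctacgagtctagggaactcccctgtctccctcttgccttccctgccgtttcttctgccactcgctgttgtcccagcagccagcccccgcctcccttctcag
Cplx1: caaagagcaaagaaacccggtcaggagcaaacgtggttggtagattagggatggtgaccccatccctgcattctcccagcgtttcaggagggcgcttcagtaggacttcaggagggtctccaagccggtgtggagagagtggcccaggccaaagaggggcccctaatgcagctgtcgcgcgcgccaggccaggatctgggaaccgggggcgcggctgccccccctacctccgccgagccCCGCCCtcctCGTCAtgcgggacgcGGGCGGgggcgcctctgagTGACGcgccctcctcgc
Slc17a6: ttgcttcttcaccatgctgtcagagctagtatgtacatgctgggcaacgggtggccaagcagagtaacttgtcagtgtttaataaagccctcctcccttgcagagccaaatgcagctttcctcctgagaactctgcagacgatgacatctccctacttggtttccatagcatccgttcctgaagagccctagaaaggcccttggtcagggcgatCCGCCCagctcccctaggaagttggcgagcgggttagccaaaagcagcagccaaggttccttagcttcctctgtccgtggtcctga

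The Cplx1 window held 2 CRE cores and 2 GC boxes, the Slc17a6 window 1 GC box, and the Cplx2 window 0 of the 4 motifs. The second Slc17a6 window, not shown, held 1 CRE core and 0 GC boxes. The GC content of the Cplx2 window was 53.3%, against 67% for the Cplx1 window. Over all 32851 promoter windows of the same 300 bases, 20.8% held the CRE core, 1.79% the full CRE, 35.7% the GC box and 13.6% the TATA box. A match describes letters only, and the absence of a match says only that these letters are not in the window.

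The largest difference among the release genes was that of Cplx2, whose signal was higher on the infused side in 3 of 3 replicates. The other 8 genes measured differed by 0.39 or less on the log2 scale at every probe set. The next in size was Slc17a6, lower on the infused side. Neither passed the threshold of an adjusted p under 0.05 over all 15298 probe sets tested with limma: 0 of the 18 did, against a background of 0.00%. At an unadjusted limma p under 0.05 there were 2 of 18, 1 higher (Cplx2) and 1 lower (a Slc17a6 probe set), against a background of 2.38% of all tested probe sets, 1.16% higher and 1.22% lower. That background is 364 probe sets, fewer than the 764.9 expected if no probe set differed. All 18 probe sets had a mean log2 signal above 4, the minimum for testing.

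**Figure D1:**
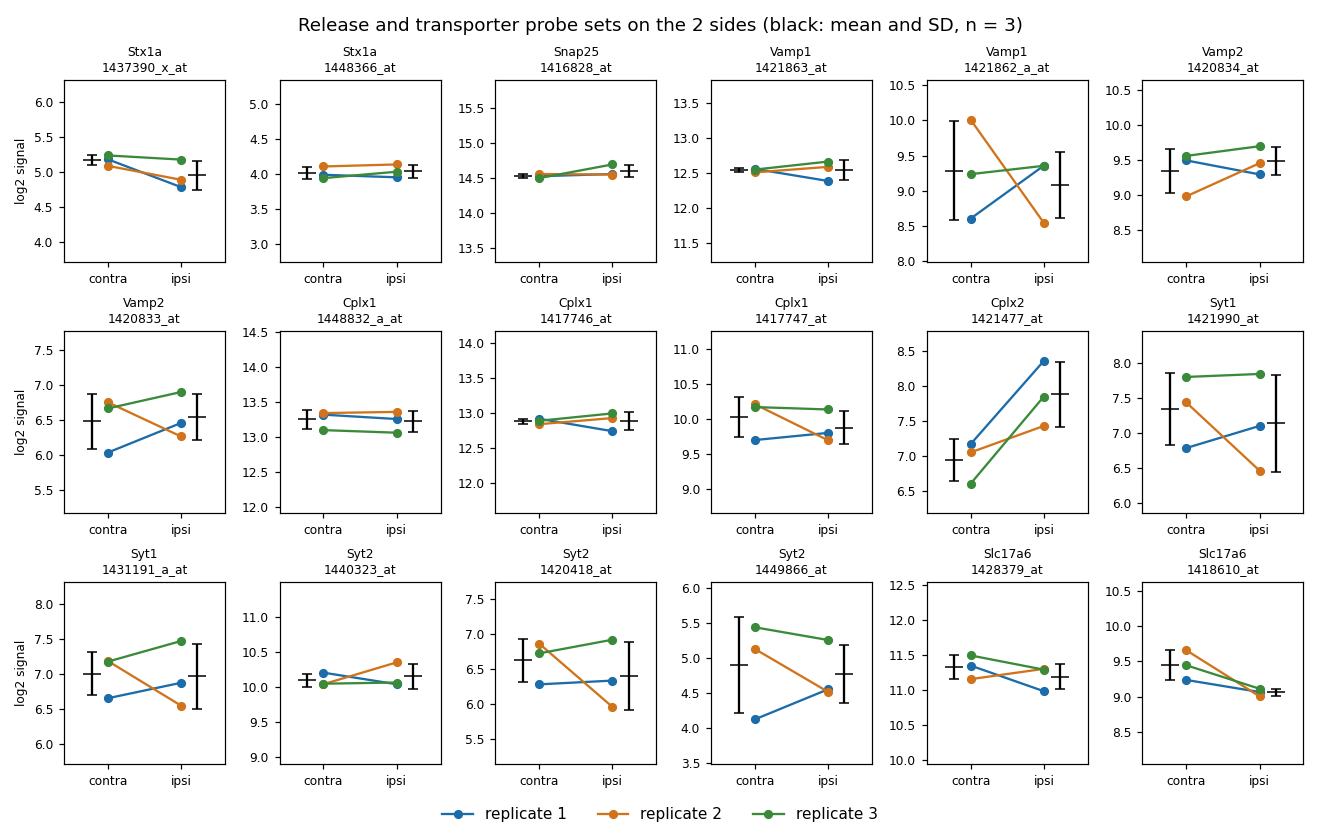
Log2 signal of the 18 probe sets on the contralateral and ipsilateral arrays. Each line joins the 2 sides of a replicate number, the black marks are the mean and SD of 3 arrays, and every panel spans the same height on the log2 axis. The Cplx2 lines all run upward, those of Slc17a6 probe set 1418610_at and Stx1a probe set 1437390_x_at all run downward, and the other panels hold lines of both directions.

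Cplx2, complexin 2, was measured by probe set 1421477_at. Its log2 signal was 7.16, 7.05 and 6.60 contralaterally (replicates 1, 2 and 3, the order used throughout) and 8.35, 7.42 and 7.84 ipsilaterally. The lowest ipsilateral array thus lay above the highest contralateral one, and the sides did not overlap. The means were 6.94 ± 0.30 and 7.87 ± 0.46 (SD, n = 3 each), a difference of 0.94 (limma, SE 0.26, 95% interval 0.33 to 1.55) and a 1.92-fold higher signal. Within replicates the difference was 1.19, 0.38 and 1.25, so it was smallest in replicate 2. Its unadjusted limma p of 0.00828 ranked 60 of 15298, and its size ranked 23, but the Benjamini-Hochberg adjusted p was 1.00. Without replicate 3 of both sides the unadjusted p was 0.0658. In bulk tissue a larger share of cells with Cplx2 and more Cplx2 message per cell cannot be told apart.

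Cplx1, complexin 1, is the paralog of Cplx2 and binds the same SNARE complex. Its brightest probe set, 1448832_a_at, read 13.32, 13.34 and 13.10 contralaterally and 13.26, 13.36 and 13.06 ipsilaterally, so both sides covered the same range. The differences of its 3 probe sets were -0.03, 0.01 and -0.15, and their unadjusted limma p lay between 0.435 and 0.960. For the brightest the 95% interval ran from -0.31 to 0.26, or from -19.4% to 19.5% of the linear signal. Set against each other on the same array, the log2 signal of Cplx1 minus that of Cplx2 was 6.15, 6.30 and 6.50 contralaterally and 4.90, 5.93 and 5.22 ipsilaterally. These ranges did not overlap, and the difference shifted by -0.97. As Cplx1 differed by only -0.03, the shift mostly repeats the difference of 0.94 at Cplx2 and is not a separate observation. The exact two-sided permutation test gave p = 0.1, the smallest that 3 arrays against 3 allow, and 0.3 adjusted over the 3 paralog pairs compared, so the shift did not pass.

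The SNARE genes gave no probe set with an unadjusted limma p under 0.05. Snap25, the plasma membrane SNARE that supplies 2 of the helices of the complex, read 14.52, 14.55 and 14.49 contralaterally and 14.55, 14.55 and 14.69 ipsilaterally. The sides overlapped, and the array ipsilateral 3 alone stood clearly above the others. Its difference was 0.07 (SE 0.09), with a 95% interval from -0.14 to 0.28, and its spread within sides was smaller than that of all but 6.62% of tested probe sets.

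Stx1a, syntaxin 1A, was dim, with means over all arrays of 5.05 for probe set 1437390_x_at and 4.03 for 1448366_at, the latter at the minimum for testing. The brighter read 5.18, 5.08 and 5.23 contralaterally and 4.78, 4.88 and 5.17 ipsilaterally. It was lower on the infused side in 3 of 3 replicates, with differences of -0.40, -0.20 and -0.06, although ipsilateral array 3 lay within the contralateral range. The difference was -0.22 (SE 0.12, unadjusted limma p of 0.124), and without ipsilateral replicate 3 it was -0.33 (unadjusted limma p of 0.0214, adjusted p = 1.00). Its unadjusted limma p was 0.0489 without replicate 3 on both sides and 0.0471 with each array shifted by the mean of pan-neuronal markers. It was 0.343 without ipsilateral replicate 1, 0.464 without replicate 1 on both sides and 0.242 without replicate 2 on both sides. The suffix _x_at marks possible cross-hybridization, and 1437390_x_at was not in the fit that left such probe sets out. The other probe set differed by 0.03.

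Vamp1, the synaptobrevin of brainstem and spinal synapses, had 2 probe sets that behaved differently between arrays. The brighter, 1421863_at, read 12.56, 12.51 and 12.55 contralaterally and 12.39, 12.59 and 12.67 ipsilaterally, with a difference of 0.01 (95% interval -0.24 to 0.25). The other, 1421862_a_at, read 8.60, 10.01 and 9.23 contralaterally and 9.36, 8.54 and 9.35 ipsilaterally. Its arrays spread far more than the difference of -0.20 (SE 0.38), with within-replicate differences of 0.76, -1.47 and 0.12. Vamp2, the other vesicle synaptobrevin, differed by 0.14 (SE 0.18) at probe set 1420834_at and by 0.06 (SE 0.24) at 1420833_at, with overlapping sides at both. The within-array difference of Vamp1 and Vamp2 shifted by -0.13 (exact two-sided permutation p = 0.8, and 0.8 adjusted over the 3 pairs).

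Syt2, the calcium sensor of fast hindbrain synapses, was read most brightly by probe set 1440323_at. It measured 10.21, 10.04 and 10.05 contralaterally and 10.04, 10.35 and 10.07 ipsilaterally, and the sides overlapped. The difference was 0.05 (95% interval -0.23 to 0.33). Its other probe sets, 1420418_at and 1449866_at, differed by -0.22 (SE 0.26) and -0.12 (SE 0.36). Syt1, the related sensor, read 6.79, 7.44 and 7.80 contralaterally and 7.10, 6.46 and 7.84 ipsilaterally at 1421990_at, where the lowest and the highest array were both ipsilateral. Its 2 probe sets differed by -0.20 (SE 0.39) and -0.04 (SE 0.26), and at 1421990_at the 95% interval of -1.12 to 0.71 covered changes from -54.1% to 64.1% of the linear signal. The within-array difference of Syt2 and Syt1 shifted by 0.26 (exact two-sided permutation p = 0.7, and 0.8 adjusted over the 3 pairs).

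Slc17a6 encodes VGLUT2, which fills vesicles with glutamate in many excitatory neurons of the brainstem. Probe set 1418610_at read 9.24, 9.66 and 9.45 contralaterally and 9.06, 9.00 and 9.11 ipsilaterally. All contralateral arrays lay above all ipsilateral ones. The means were 9.45 ± 0.21 and 9.06 ± 0.05 (SD, n = 3 each), a difference of -0.39 (SE 0.13, 95% interval -0.69 to -0.09) and a 1.31-fold lower signal, with an unadjusted limma p of 0.0177 and an adjusted p of 1.00. Leaving out ipsilateral replicate 2 gave an unadjusted p of 0.0529, and leaving out replicate 2 or 3 on both sides gave 0.121 and 0.0678.

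The brighter Slc17a6 probe set, 1428379_at, read 11.35, 11.16 and 11.50 contralaterally and 10.98, 11.30 and 11.29 ipsilaterally, so there the sides overlapped. Its difference was -0.14 (SE 0.14, unadjusted limma p of 0.334), with within-replicate differences of -0.37, 0.15 and -0.20. The mean of both probe sets was 10.29, 10.41 and 10.47 contralaterally and 10.02, 10.15 and 10.20 ipsilaterally. For this mean, which reuses the values of 1418610_at, the sides did not overlap again. The within-replicate differences were -0.27, -0.26 and -0.27, but in replicate 2 the probe sets went opposite ways, 0.15 at 1428379_at and -0.66 at 1418610_at. The difference of the gene was -0.26 (SE 0.09, unadjusted limma p of 0.0256, adjusted p = 1.00 over 8754 genes).

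**Figure D2:**
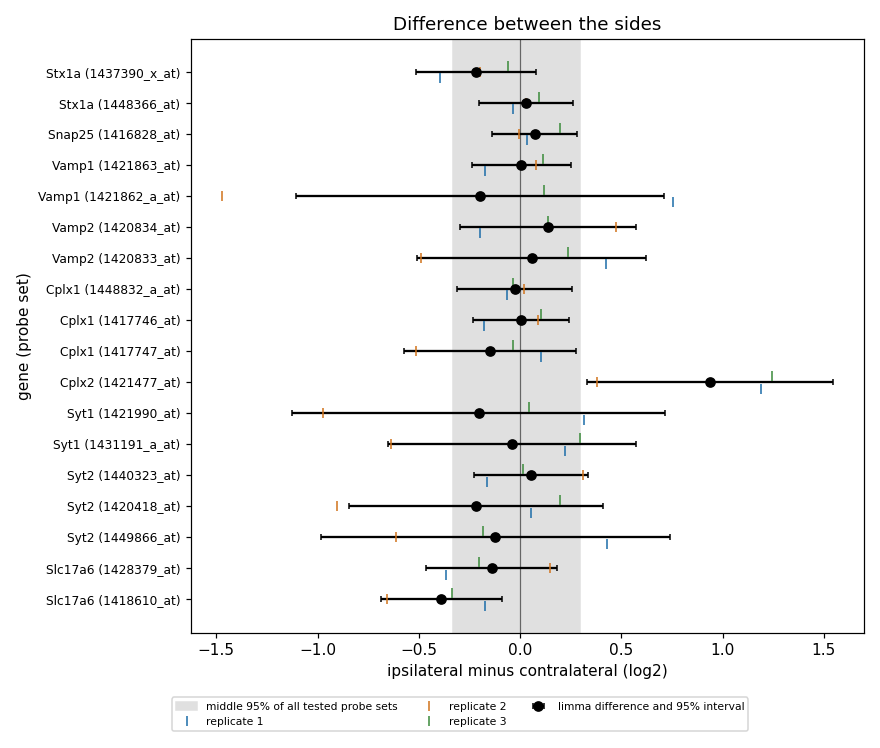
Difference between the sides (ipsilateral minus contralateral, log2) for each probe set. Points and bars are the limma difference and its 95% interval, coloured ticks the difference within each replicate, and the grey band, from -0.33 to 0.29, holds the middle 95% of all 15298 tested probe sets. Cplx2 and Slc17a6 probe set 1418610_at lie outside the band and their intervals do not reach 0.

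As a group the 18 probe sets were split, 8 higher and 10 lower on the infused side, against 48.2% higher and 51.8% lower over all tested probe sets. Their median difference was -0.03, and that of all tested probe sets -0.01. The median size regardless of direction was 0.13, against 0.08. Their median SD within sides was larger too, 0.22 against 0.16. The sides did not overlap for 2 of 18, 1 higher and 1 lower, against a background of 6.26% (2.82% higher and 3.44% lower). The sign was the same in 3 of 3 replicates for 3 of 18, 1 higher and 2 lower, against 23.7% (10.7% higher and 13.0% lower), and 1 of 18 differed by 0.5 or more, against 1.12%. These shares are descriptions, since probe sets of a gene share their message. The mean over the 9 genes, each by its brightest probe set, was 10.06, 10.02 and 10.10 contralaterally and 10.08, 10.04 and 10.26 ipsilaterally. That of 21 pan-neuronal markers, none of them a release gene listed here, was 10.51, 10.42 and 10.62, and 10.45, 10.56 and 10.74. Ipsilateral array 3 was thus the highest for both.

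Several dimmer probe sets moved together between arrays, in a pattern that crossed the sides. Relative to the brightest probe set of the same gene, the signal was lowest on contralateral array 1 or ipsilateral array 2 in 6 of 9 within-gene comparisons. The gap between the Vamp1 probe sets was 3.96, 2.50 and 3.32 contralaterally and 3.03, 4.05 and 3.31 ipsilaterally. That between the Vamp2 probe sets was 3.47, 2.24 and 2.91, and 2.85, 3.20 and 2.81. For Slc17a6 it was 2.11, 1.50 and 2.05, and 1.92, 2.30 and 2.18. It was smallest on contralateral array 2, the array on which 1418610_at was highest. These 3 gaps were the only ones of the 9 that were smallest on that array.

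The control probe sets for the 3′ and 5′ ends of Actb, Gapdh, Tfrc and Pc, which serve as a check of RNA length, were read beside the gaps. The 3′ minus 5′ signal, averaged over these 4 genes, was 1.78, 1.11 and 1.54 contralaterally and 1.56, 1.85 and 1.58 ipsilaterally. It was thus largest on contralateral array 1 and ipsilateral array 2 and smallest on contralateral array 2. For Actb, contralateral array 1 (1.22) lay below contralateral array 3 and ipsilateral array 3 (both 1.24). The averaged value had a mean of 1.48 contralaterally and 1.66 ipsilaterally, so it also differed between the sides. With this value as a covariate, an alternative chosen after seeing the data, Cplx2 differed by 1.02 (unadjusted limma p of 0.0132) and Slc17a6 probe set 1418610_at by -0.29 (unadjusted limma p of 0.0272), with an adjusted p of 1.00 for both. Without the 2 arrays of largest value they differed by 1.28 and -0.47. With the covariate the brighter Slc17a6 probe set, 1428379_at, differed by -0.22 (unadjusted limma p of 0.167). The Vamp1 probe set 1421862_a_at turned from -0.20 to 0.21 with the covariate, and those of Syt1 from -0.20 to 0.02 and from -0.04 to 0.13. Where along its transcript each probe set lies was not analysed here.

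**Figure D3:**
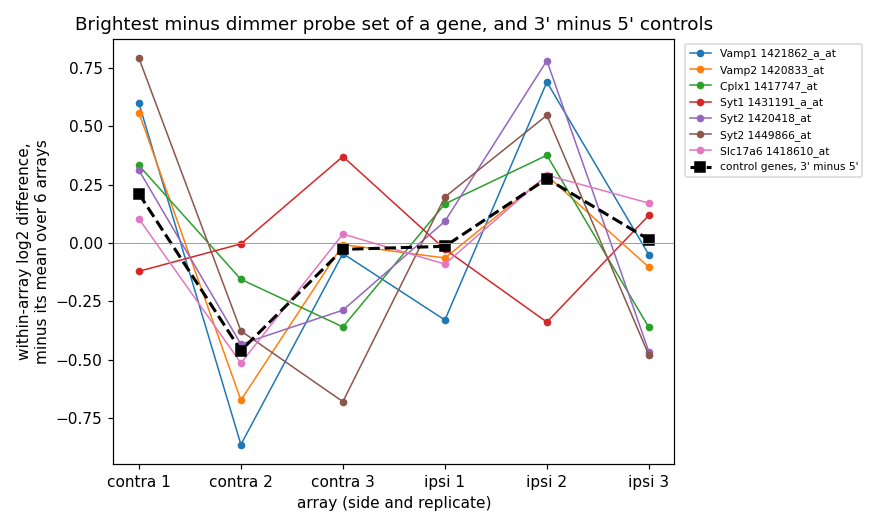
Within-array log2 difference between the brightest and a dimmer probe set of the same gene, minus its mean over the 6 arrays, for the comparisons that ranged over 0.7 or more, with the 3′ minus 5′ difference averaged over 4 control genes as the dashed line. Most lines are high on contralateral 1 and ipsilateral 2 and low on contralateral 2, where only those of Vamp1, Vamp2 and Slc17a6 are at their lowest. The Syt1 line runs the other way on contralateral 1 and ipsilateral 2 and is near its mean on contralateral 2.

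Markers of other tissue also differed between arrays. Atoh7, a transcription factor of cochlear nucleus neurons, was the brightest of the regional identity markers at a mean of 9.53, and 8 of the 10 such markers on the array were above the minimum, Hoxb3 and Tfap2b being at or below it. The mean of 10 choroid plexus markers was 8.14, 7.93 and 7.45 contralaterally and 9.03, 5.32 and 5.38 ipsilaterally. Lower on the infused side were 10 of 10, of which 0 had an unadjusted limma p under 0.05. With that mean as a covariate Cplx2 differed by 1.21 (SE 0.19, unadjusted limma p of 7.31e-04, adjusted p = 1.00) and Slc17a6 probe set 1418610_at by -0.39 (unadjusted limma p of 0.0429). The mean of 14 microglial markers ranged from 6.66 to 6.97 contralaterally and from 6.89 to 7.01 ipsilaterally. Of these 12 were higher and 2 lower on the infused side. At an unadjusted limma p under 0.05 there were 3, against 2.38% of all tested probe sets, and 0 passed the adjusted threshold. A further 4 microglial markers and 1 endothelial marker were at or below the minimum. The mean of 12 cerebellar granule and Purkinje cell markers ranged from 9.33 to 9.65 and from 9.24 to 9.67, with 7 higher and 5 lower. Among them 1 had an unadjusted limma p under 0.05, as did 1 of the 21 pan-neuronal markers. Oligodendrocyte markers (9 genes) ranged from 12.08 to 12.35 and from 12.23 to 12.31, astrocyte markers (13 genes) from 10.54 to 10.67 and from 10.63 to 10.69, and endothelial markers (11 genes) from 7.17 to 7.24 and from 7.06 to 7.21. Higher on the infused side were 8 of 9 oligodendrocyte, 10 of 13 astrocyte and 3 of 11 endothelial markers, 0 of them at an unadjusted limma p under 0.05. With each array shifted by its pan-neuronal mean, Cplx2 differed by 0.87 and 1418610_at by -0.45. The part of the other marker lists in these differences was not tested.

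The genes whose signal followed that of Cplx2 most closely over the 6 arrays were Hsp90aa1 (Pearson r = 0.990), a cytosolic chaperone, Mms19 (0.987), which delivers iron-sulphur clusters to proteins, and Pikfyve (0.986), a lipid kinase of endosomes. They were picked as the highest of all tested probe sets with a gene name, and no test was made. As Cplx2 was higher on the infused side, genes picked in this way tend to be higher there too. Hsp90aa1 differed between the sides by 0.08, Mms19 by 0.21 and Pikfyve, which was dim, by 0.48. The signal of Hsp90aa1 moved little, from 13.34 to 13.52 over the 6 arrays. Of the other release genes, each by its brightest probe set, Slc17a6 (-0.77) and Stx1a (-0.70) ran against Cplx2 and Snap25 (0.55) with it, as a description of 6 arrays.

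Other genes of the release pathway were read from lists that hold none of the 10 genes, each gene by its brightest tested probe set. No gene of these lists passed the adjusted limma threshold. Of the vesicle fusion and docking genes 32 of 49 could be tested, 19 higher and 13 lower, with a median difference of 0.04. Over all 8754 named genes 4298 were higher and 4456 lower, with a median of -0.0029. At an unadjusted limma p under 0.05 there was 1 of 32, Rab27b, against 97 higher and 116 lower of the 8754 named genes. Rab27b, a small GTPase of vesicle docking, read 4.22, 4.26 and 4.15 contralaterally and 4.36, 4.42 and 4.51 ipsilaterally, close to the minimum for testing. Doc2b, a calcium sensor for asynchronous and spontaneous release, differed by 0.64 (SE 0.29) and was dimmer still on contralateral arrays 2 and 3, at 3.63 and 3.57. Snap29, a relative of Snap25, differed by 0.33 (SE 0.16), and by 0.57 at its other probe set.

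Of the genes of vesicle endocytosis and recycling 20 of 23 could be tested, 8 higher and 12 lower, with a median of -0.01. Ap2b1, a subunit of the clathrin adaptor AP-2, read 8.83, 7.91 and 8.05 contralaterally and 9.07, 8.74 and 9.12 ipsilaterally, a difference of 0.71 (SE 0.25, unadjusted limma p of 0.0252). Contralateral array 1 lay within the ipsilateral range, and the other probe set of Ap2b1 differed by 0.03. Sh3gl1, an endophilin, differed by 0.25 and Cltb, a clathrin light chain, by -0.13. Of the synapsin and vesicle membrane genes 11 of 13 could be tested, 8 higher and 3 lower, with a median of 0.05 and 0 at an unadjusted limma p under 0.05. Those of smallest p were Synpr, the vesicle protein synaptoporin (0.45, SE 0.32), the synapsin gene Syn2 (0.10) and the synaptogyrin gene Syngr3 (-0.14).

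Of the other vesicular transporters 2 of 8 could be tested. Slc32a1, which loads GABA and glycine, differed by 0.07 (SE 0.12), and Slc30a3, which loads zinc, by 0.06 (SE 0.10). Of the presynaptic calcium channel genes 6 of 7 could be tested, 3 higher and 3 lower. Cacna2d2 differed by 0.25 (SE 0.12), Cacna1a, the pore of P/Q-type channels, by 0.18, and Cacna1b, the pore of N-type channels, by -0.21. Cacna1b was dim, at 4.50, 4.52 and 4.60 contralaterally and 4.47, 4.47 and 4.04 ipsilaterally, where ipsilateral array 3 alone stood apart.

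**Figure D4:**
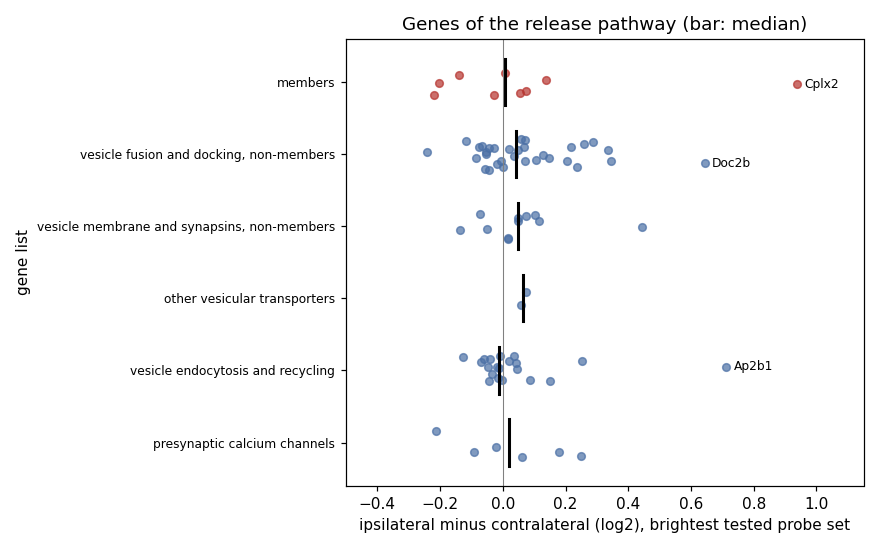
Difference between the sides (ipsilateral minus contralateral, log2) for the 9 genes measured (red) and for the other lists of the release pathway (blue), each gene by its brightest tested probe set, with the median of each list as a bar. Most genes lie near 0, and Cplx2 (0.94), Ap2b1 (0.71) and Doc2b (0.64) stand to the right.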

How the data were processed

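Total RNA from cochlear nucleus pools was hybridised to Affymetrix arrays, 1 per sample. The authors deposited log2 expression values per probe set, made with GCRMA per the submitters' processing notes, which give no version. That the scale is log2 follows from its range of 1.40 to 16.0. GCRMA corrects background from probe sequence and normalizes between arrays, so differences of dim probe sets are uncertain and a change common to most genes is removed.

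Probe sets were named from the platform annotation, 20393 of 22690 with a single symbol, 691 with several and 1606 with none. By Entrez identifier 20364 matched RefSeq, 29 did not, and 0 symbols changed. Left out were 64 control probe sets and 7328 whose mean log2 value did not exceed 4. Differences were fitted with limma 3.58.1 (R 4.3.3) over all 6 arrays with no replicate block, Benjamini-Hochberg adjusted over 15298 probe sets, threshold 0.05. Precision is limited by the number of arrays. The p-values of this fit measure the spread between arrays of the same side, each a pool, and treat the 6 arrays as unpaired.

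The members, lists and tests were chosen with earlier results of these data known. Named genes were all members, up to 3 genes of smallest p per pathway list, the brightest marker of the regional list, and the 3 genes most correlated with Cplx2. A comparison of Slc17a7 with Slc17a6 was planned and not run, as Slc17a7 had no probe set.

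The study's description says that mice were pooled per replicate, and samples that share a replicate number were read as both sides of 1 pool, which no label states. After each side's mean was removed, arrays of a shared number correlated at 0.09, 0.04 and 0.57 over tested probe sets, while arrays of different numbers correlated at -0.37 to 0.30, highest for contralateral 1 with ipsilateral 2. Only the correlation of replicate 3 lay above all those of different numbers, so the values do not settle the pairing. Alternatives covered the filter, normalization, replicate block, variance model, plain test, probe set choice, neuronal, choroid plexus and RNA quality terms, and arrays left out.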

Additional observations from a re-analysis of the deposited data

How the results depend on the processing

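No member probe set passed the adjusted threshold under any alternative run, and Cplx2 stayed higher and both Slc17a6 probe sets lower on the infused side in all of them. Over fits leaving out 1 array or 1 replicate number, Cplx2 ranged from 0.70 to 1.22, Slc17a6 from -0.50 to -0.25 (1418610_at) and from -0.28 to -0.028 (1428379_at), Snap25 from 0.012 to 0.11 and Stx1a 1437390_x_at from -0.33 to -0.13. Each of the other probe sets took both signs. They ranged from -0.020 to 0.076 (Stx1a 1448366_at), -0.052 to 0.097 (Vamp1 1421863_at), -0.68 to 0.44 (Vamp1 1421862_a_at), -0.044 to 0.31 (Vamp2 1420834_at), -0.17 to 0.33 (Vamp2 1420833_at), -0.10 to 0.055 (Cplx1 1448832_a_at), -0.048 to 0.097 (Cplx1 1417746_at) and -0.31 to 0.034 (Cplx1 1417747_at). For the calcium sensors the ranges were -0.56 to 0.18 (Syt1 1421990_at), -0.29 to 0.26 (Syt1 1431191_a_at), -0.074 to 0.16 (Syt2 1440323_at), -0.48 to 0.12 (Syt2 1420418_at) and -0.51 to 0.15 (Syt2 1449866_at). The count of members at an unadjusted limma p under 0.05 ranged from 1 (without ipsilateral replicate 2, or replicate 2 or 3 on both sides) to 3 (without ipsilateral replicate 3), against 2 with all arrays. Without replicate 3 on both sides the 1 was Stx1a 1437390_x_at, which was also the third under the shift by the pan-neuronal mean. The count over all 15298 tested probe sets moved with the fit too. It was 315 under that shift, 302 without contralateral replicate 2 and 504 without contralateral replicate 3, with 3, 2 and 2 members among them. The counts of members are descriptions only. Their median difference ranged from -0.16 to 0.031 and was -0.15 without contralateral replicate 1 and -0.16 without ipsilateral replicate 3, against -0.03. Probe sets past the adjusted threshold ranged from 0 to 5, with 5 without ipsilateral replicate 1 and 2 without replicate 1 on both sides, none of them a member. The shift of Syt2 against Syt1 ranged from -0.25 to 0.63 and that of Vamp1 against Vamp2 from -0.21 to 0.0015, while that of Cplx1 against Cplx2 kept its sign, from -1.27 to -0.81.

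Over all tested probe sets 364 had an unadjusted limma p under 0.05, where 764.9 would be expected if no probe set differed. A separate fit with a minimum mean of 6 gave 233, with fewer tested, one on the mean of a gene's probe sets 230 and one with the replicate block 569 (the cause was not tested). The replicate block changed no call of a member. With it the SE of Cplx2 was 0.20 (unadjusted limma p of 0.00655). That of Slc17a6 1418610_at was 0.12 (unadjusted limma p of 0.0273). Signs turned as follows, and the causes were not tested. Shifting by the pan-neuronal mean gave -0.037 (Stx1a 1448366_at), -0.058 (Vamp1 1421863_at), -0.0083 (Vamp2 1420833_at), -0.060 (Cplx1 1417746_at) and -0.011 (Syt2 1440323_at). The choroid plexus covariate gave -0.012, -0.073, -0.0071 and -0.067 for the first 4 of these. The 3′ minus 5′ covariate gave -0.015 and 0.21 (Vamp1), -0.022 (Cplx1 1417746_at), 0.022 and 0.13 (Syt1), and -0.015 and 0.10 (Syt2 1440323_at and 1449866_at). Leaving out contralateral replicate 1 and ipsilateral replicate 2 together, chosen like that covariate after seeing the data, gave -0.032 (Stx1a 1448366_at), -0.0041 (Vamp1 1421863_at) and -0.030 (Vamp2 1420833_at). The mean of a gene's probe sets gave -0.096 for Vamp1 and -0.095 for Syt2. The probe set Stx1a 1448366_at, at a mean of 4.03, lay at the minimum for testing.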
